A study of Mus musculus with 24 samples.

Results

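The oligoadenylate synthetases examined here were Oas1a, Oas1g, Oas2, Oas3, Oasl1 and Oasl2, 6 genes of mouse chromosome 5. Members were all probe sets of an Affymetrix expression array whose annotation gives only one of these symbols. This rule found Oas1a, Oas2, Oas3, Oasl1 and Oasl2, each with 1 probe set, so 5 of the 18193 genes that the 45033 probe sets with values name singly. Oas1g had no such probe set and was not measured. Each measured gene rests on 1 probe set. Between strains of different genetic background, a sequence variant under the probes and a difference in expression therefore cannot be told apart. Signal from near-identical paralogs such as Oas1g within the Oas1a probe set cannot be separated.

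Oligoadenylate synthetases are interferon-induced sensors of viral double-stranded RNA in the cytoplasm. On binding RNA, the enzymes of the family join ATP into short oligoadenylates, which act as second messengers of the antiviral response. Macrophages express the family at a basal level maintained by tonic type I interferon, and raise it when Toll-like receptors or cytosolic sensors trigger interferon production.

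The study measured total RNA of bone marrow-derived macrophages from male mice, all carrying the Il10tm1Cgn disruption of the gene for the anti-inflammatory cytokine interleukin 10, so no group has intact Il10. The series concerns Cdcs1, a colitis susceptibility locus of chromosome 3. The colitis-resistant B6 strain is C57BL/6J-Il10tm1Cgn, and the susceptible C3Bir strain is C3H/HeJBir-Il10tm1Cgn. In BC-R3 the Cdcs1 interval derives from C3Bir and the rest of the genome from B6. In CB-R1 the genome is that of C3Bir apart from an extended B6 stretch of chromosome 3 around Cdcs1. No Cre, transgene or cell sorting is named in the labels. Cells were cultured for 6 days without any added agent named in the labels, or received Cbir flagellin, a bacterial protein, at 1 µg/mL for the last 4 h. There were 8 groups of strain and condition with 3 arrays each, numbered 1 to 3, and 3 wells were pooled per RNA sample. The labels give 3 mice per genotype but tie no number to a mouse, so the p-values below reflect variation among arrays, which may be partly technical. The small number of arrays limits the precision.

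All 8 macrophage markers, among them Adgre1, Csf1r and C1qa, lay above the array median on every array. So did all 6 neutrophil markers measured, and their mean log2 value ranged from 11.17 to 12.87 over the 24 arrays. Of other cell types, 0 of 3 B cell, 1 of 4 T and NK cell, 3 of 6 dendritic, 2 of 5 stromal and 1 of 4 mast cell and basophil markers lay above the median on every array. Arrays labelled unstimulated differed within groups before any comparison is made. For 11 inflammatory cytokine genes such as Il6 and Tnf, arrays 2 and 3 of B6 unstimulated had mean log2 values of 9.34 and 9.41. Arrays 2 and 3 of C3Bir unstimulated had 7.95 and 7.86. All remaining 20 arrays lay between 6.48 and 7.27. B6 unstimulated arrays 2 and 3 also had the highest means over 22 interferon-stimulated genes, 12.41 and 12.43. On the B6 arrays labelled flagellin the cytokine mean was lower, 6.72 to 7.00. Whether the labels of the B6 arrays are correct or were exchanged was not tested. Groups are named below by their labels, and each direction between conditions in B6 holds only if these are correct. Comparisons of the members that use B6 unstimulated arrays 2 and 3 are also given without these and C3Bir unstimulated arrays 2 and 3. This leaves array 1 alone in both groups. Other gene lists, group orders and correlations are given with all arrays only. Because the cultures are bulk samples, fewer cells of a type and less RNA per cell cannot be told apart.

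The promoter windows below are shown because interferon response is read through a short DNA element. Oas1g has a window but was not measured, and Oas2 was measured but has no window. The interferon-stimulated response element, a binding site of interferon regulatory factors, was searched as GAAA, any 2 bases and GAAA on both strands, and matches may overlap. RefSeq windows of build GRCm38.p6, 250 bases before to 50 after the gene's start, were found for 5 of the 6 genes. Of all 32851 windows of this length, 3.44% hold the motif. Each window is written 5′ to 3′ on the gene's strand, with matches in capitals, in the order Oas1a, Oas1g, Oas3, Oasl1 and Oasl2. Their positions are chr5:120907476-120907775 (minus strand), chr5:120887564-120887863 (minus), chr5:120777610-120777909 (minus), chr5:114922990-114923289 (plus) and chr5:114896684-114896983 (plus).
Oas1a: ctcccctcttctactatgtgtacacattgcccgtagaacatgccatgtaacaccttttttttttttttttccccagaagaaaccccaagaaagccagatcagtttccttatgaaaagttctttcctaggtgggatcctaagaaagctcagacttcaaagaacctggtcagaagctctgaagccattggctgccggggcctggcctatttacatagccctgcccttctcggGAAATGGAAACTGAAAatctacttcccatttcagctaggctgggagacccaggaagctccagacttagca
Oas1g: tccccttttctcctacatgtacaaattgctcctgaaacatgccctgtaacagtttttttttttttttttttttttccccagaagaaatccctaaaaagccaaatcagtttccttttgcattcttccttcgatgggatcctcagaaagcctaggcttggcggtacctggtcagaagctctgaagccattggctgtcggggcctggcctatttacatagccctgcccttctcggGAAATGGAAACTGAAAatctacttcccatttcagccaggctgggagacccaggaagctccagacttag
Oas3: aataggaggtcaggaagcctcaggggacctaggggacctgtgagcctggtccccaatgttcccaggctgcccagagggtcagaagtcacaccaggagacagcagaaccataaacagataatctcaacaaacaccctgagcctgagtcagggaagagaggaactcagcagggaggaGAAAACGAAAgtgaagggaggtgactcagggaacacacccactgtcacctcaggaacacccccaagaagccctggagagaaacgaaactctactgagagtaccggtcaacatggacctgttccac
Oasl1: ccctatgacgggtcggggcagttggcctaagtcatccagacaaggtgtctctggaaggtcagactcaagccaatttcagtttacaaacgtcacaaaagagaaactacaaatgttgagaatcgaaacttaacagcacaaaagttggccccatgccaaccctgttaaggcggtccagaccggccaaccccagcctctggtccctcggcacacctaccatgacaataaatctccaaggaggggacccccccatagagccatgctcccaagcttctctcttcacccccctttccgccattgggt
Oasl2: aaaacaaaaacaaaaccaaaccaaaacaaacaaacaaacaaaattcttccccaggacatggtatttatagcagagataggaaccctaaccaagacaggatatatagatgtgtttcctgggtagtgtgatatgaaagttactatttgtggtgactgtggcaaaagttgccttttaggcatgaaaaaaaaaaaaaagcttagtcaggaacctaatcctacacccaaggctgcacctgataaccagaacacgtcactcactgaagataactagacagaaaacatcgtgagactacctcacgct
Oas1a and Oas1g each hold 2 overlapping matches, GAAATGGAAA and GAAACTGAAA, directly upstream of the start, from base -20 to -5 in Oas1a and from -18 to -3 in Oas1g. Oas3 holds 1 match, GAAAACGAAA, from base -75 to -66. These letters are not in the windows of Oasl1 and Oasl2, the members whose signal varied most, which says nothing of sites elsewhere. A match describes the sequence and is no evidence of binding.

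In gene order on chromosome 5, Oasl2 and Oasl1 are neighbours. The other 4 members lie in a separate cluster that runs Oas2, Oas3, Oas1e, Oas1c, Oas1b, Oas1f, Oas1h, Oas1g, Oas1a and Oas1d. No member lies on chromosome 3, where the congenic segments were selected.

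All measured members were well expressed. Their probe sets ranked at least at the 73.5th percentile of their array on every array, and Oas1a never fell below the 97.7th. Oasl1 varied most, from 8.02 to 12.65, a range of 4.63 on the log2 scale or 24.8-fold. Oasl2 spanned 2.92, Oas2 1.87, Oas3 1.53 and Oas1a 1.28, against a median range of 0.54 over all probe sets. All 5 reached their highest value on B6 unstimulated array 3. Oas1a, Oas2, Oas3 and Oasl2 had their lowest on B6 flagellin array 2, and Oasl1 on B6 flagellin array 3.

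**Figure D1:**
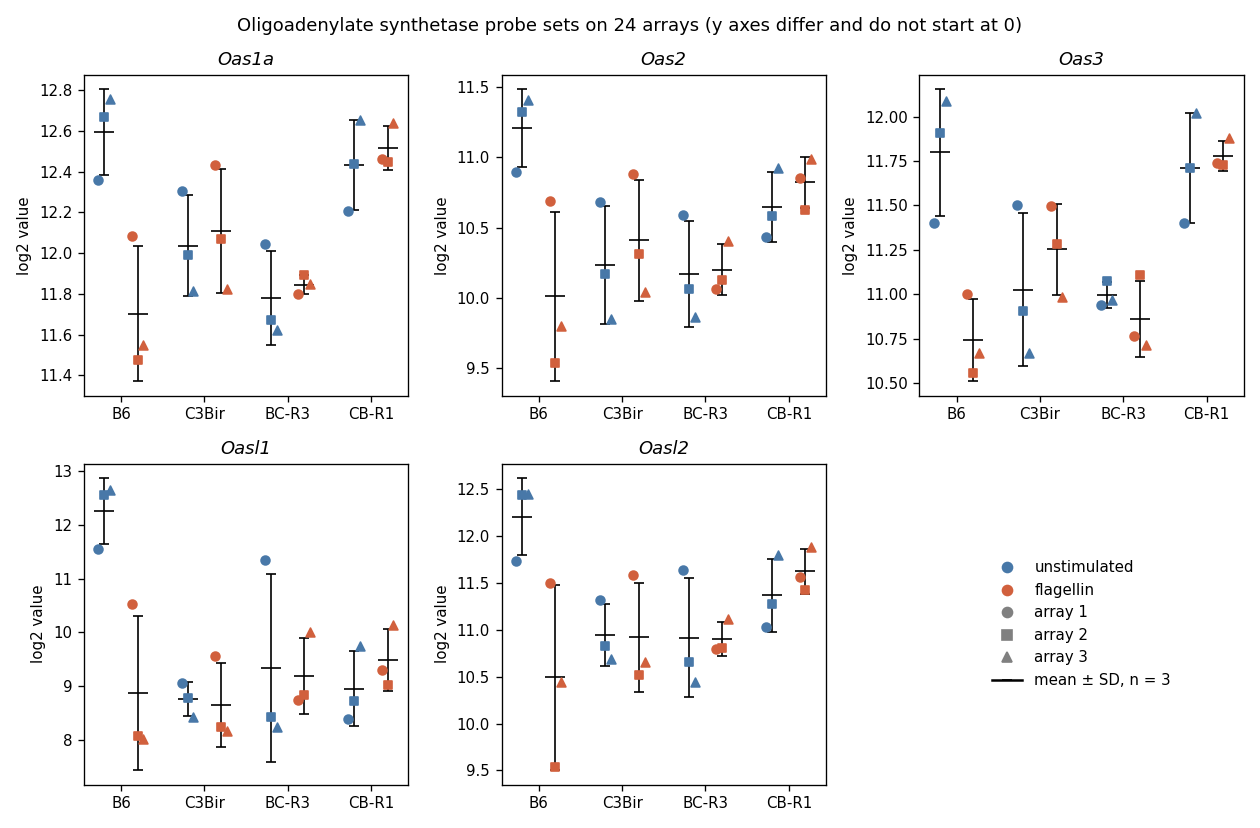
Log2 value of each member's probe set on the 24 arrays, by strain on the x axis and condition by colour, with the mean and SD of 3 arrays and marker shape giving the array number. The B6 unstimulated arrays lie above the B6 flagellin arrays in all 5 panels, and Oasl1 spans 8.02 to 12.65.

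Oas1a makes oligoadenylates and is the main enzyme of the murine Oas1 group with that activity. Its log2 values on arrays 1, 2 and 3 were 12.36, 12.67 and 12.76 in B6 unstimulated and 12.08, 11.48 and 11.55 in B6 with flagellin. In C3Bir they were 12.30, 11.99 and 11.81 unstimulated and 12.43, 12.07 and 11.83 with flagellin. Only the B6 conditions were apart, while those of C3Bir covered nearly the same range. In BC-R3 they were 12.04, 11.67 and 11.62 unstimulated and 11.80, 11.89 and 11.85 with flagellin. In CB-R1 they were 12.21, 12.44 and 12.65 unstimulated and 12.46, 12.45 and 12.64 with flagellin. All 6 CB-R1 arrays lay above all 6 BC-R3 arrays.

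Oas2, a larger enzyme with a repeated synthetase unit, had 10.89, 11.32 and 11.41 in B6 unstimulated and 10.69, 9.54 and 9.80 in B6 with flagellin. B6 flagellin array 1 stood close to the unstimulated arrays, and arrays 2 and 3 were the lowest of all 24. The other strains lay between 9.85 and 10.99, C3Bir at 10.68, 10.17 and 9.85 unstimulated and 10.88, 10.31 and 10.04 with flagellin. BC-R3 had 10.59, 10.06 and 9.86 unstimulated and 10.07, 10.13 and 10.41 with flagellin. CB-R1 had 10.43, 10.58 and 10.92 unstimulated and 10.85, 10.63 and 10.99 with flagellin. In none of these 3 strains were the conditions apart.

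Oas3, the largest of the synthetases, which binds long RNA, had 11.40, 11.91 and 12.09 in B6 unstimulated and 11.00, 10.56 and 10.67 in B6 with flagellin. In C3Bir it had 11.50, 10.90 and 10.67 unstimulated and 11.49, 11.28 and 10.98 with flagellin. BC-R3 had 10.94, 11.08 and 10.97 unstimulated and 10.76, 11.11 and 10.71 with flagellin. All of the BC-R3 arrays lay below the B6 unstimulated arrays. CB-R1 had 11.40, 11.71 and 12.02 unstimulated and 11.74, 11.73 and 11.88 with flagellin. With flagellin all 3 CB-R1 arrays were higher than the 9 arrays of the other strains.

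Oasl1 lacks synthetase activity, carries ubiquitin-like domains and restrains translation of Irf7, a master regulator of type I interferon. It had 11.55, 12.56 and 12.65 in B6 unstimulated and 10.53, 8.08 and 8.02 in B6 with flagellin. BC-R3 had 11.35, 8.43 and 8.24 unstimulated and 8.74, 8.83 and 10.01 with flagellin. In both of these groups array 1 was far above arrays 2 and 3, in BC-R3 unstimulated and in B6 flagellin alike. C3Bir had 9.06, 8.79 and 8.43 unstimulated and 9.56, 8.25 and 8.17 with flagellin. CB-R1 had 8.40, 8.73 and 9.75 unstimulated and 9.29, 9.02 and 10.14 with flagellin. All 12 arrays of C3Bir and CB-R1 were below all 3 of B6 unstimulated.

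Oasl2 also carries ubiquitin-like domains but keeps synthetase activity. It had 11.74, 12.44 and 12.45 in B6 unstimulated and 11.50, 9.53 and 10.44 in B6 with flagellin. In C3Bir it had 11.32, 10.83 and 10.69 unstimulated and 11.58, 10.52 and 10.65 with flagellin. The C3Bir conditions overlapped, with array 1 the highest in each. BC-R3 had 11.64, 10.65 and 10.45 unstimulated and 10.79, 10.80 and 11.12 with flagellin. CB-R1 had 11.03, 11.28 and 11.80 unstimulated and 11.56, 11.43 and 11.89 with flagellin. Outside B6 the highest value was that of CB-R1 flagellin array 3.

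Ordered by mean, B6 unstimulated came first for each of the 5 members, and CB-R1 with flagellin second. B6 with flagellin came last for Oas1a, Oas2, Oas3 and Oasl2 and sixth for Oasl1, where C3Bir with flagellin was last. Group means of Oas1a ran from 12.59 ± 0.21 in B6 unstimulated to 11.70 ± 0.33 in B6 with flagellin (mean ± SD, n = 3). Those of Oas3 ran from 11.80 ± 0.36 to 10.74 ± 0.23 for the same groups. Neighbours in the order had overlapping arrays throughout, with a single exception. Oasl1 in B6 unstimulated, 12.25 ± 0.61, stood 2.77 above CB-R1 with flagellin, 9.49 ± 0.58, with no overlap.

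In 6 of the 8 groups the same array was highest for all 5 members. Array 1 was highest for all 5 members in C3Bir unstimulated, C3Bir with flagellin and B6 with flagellin. Array 3 was highest for all 5 in B6 unstimulated and in both conditions of CB-R1. In BC-R3 unstimulated array 1 was highest for 4 members and array 2 for Oas3, and in BC-R3 with flagellin array 3 was highest for 3 members and array 2 for 2. C3Bir unstimulated arrays 2 and 3, which were high in cytokine genes, were lower than array 1 in each member. B6 unstimulated arrays 2 and 3, also high in cytokine genes, were higher than array 1 in each member.

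**Figure D2:**
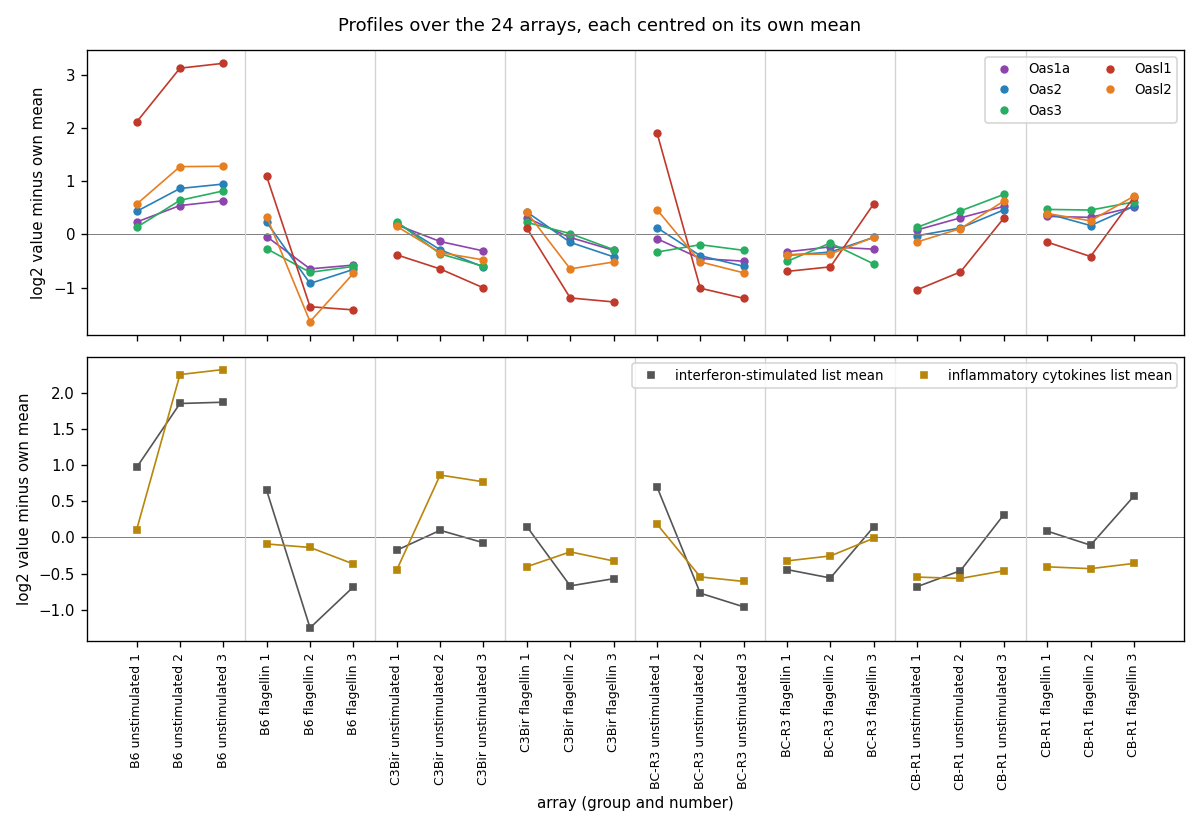
Top, log2 value of each member on the 24 arrays minus its own mean; bottom, the mean of the interferon-stimulated and the inflammatory cytokine lists, centred likewise. Lines join arrays of a group and carry no order. On C3Bir unstimulated arrays 2 and 3 the cytokine mean, 7.95 and 7.86, is above that of array 1, 6.64, while the members are below array 1.

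The members fell along a gradient of likeness over the 24 arrays. Pearson's r was 0.965 between Oas2 and Oasl2, 0.944 between Oas1a and Oas2 and 0.941 between Oas1a and Oas3, and lowest, 0.504, between Oasl1 and Oas3. The arrays share strains, cultures and the 2 high B6 arrays, so these values describe the set and carry no p. Among other genes, those most like Oas1a were Irf7 (r = 0.954), Sp100 (0.949), a nuclear body protein, and Mov10 (0.941), an RNA helicase. Most like Oas2 were Uba7 (0.967), the activating enzyme of ISG15, Dhx58 (0.964) and Slfn1 (0.962). Most like Oas3 were 1600014C10Rik (0.942), Lgals9 (0.937) and Timeless (0.921). Most like Oasl1 were Samd9l (0.979), Daxx (0.977) and Ifi47 (0.973), an immunity-related GTPase. Most like Oasl2 were Zbp1 (0.973), a nucleic acid sensor, Slfn1 (0.970) and Dhx58 (0.969), an RNA helicase related to Rigi. Thus the 5 members had partly different nearest genes, with Slfn1 and Dhx58 shared by Oas2 and Oasl2.

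The first comparison asked how flagellin changed the family within each strain. In B6 all 5 members were lower on the arrays labelled flagellin than on those labelled unstimulated. Oasl1 fell by 3.38 ± 0.71 on the log2 scale (± SE), or 10.4-fold, and Oasl2 fell by 1.72 ± 0.39, or 3.29-fold. The fall was 1.20 ± 0.27 for Oas2, 1.06 ± 0.20 for Oas3 and 0.89 ± 0.17 for Oas1a, that is 2.29-, 2.08- and 1.85-fold. Limma's adjusted p over all probe sets lay between 0.00384 for Oas3 and 0.00771 for Oasl2. Of all 45033 probe sets 7.94% were called lower in this contrast, and the members' median of -1.20 compares with -0.03 over all probe sets. The 3 arrays of each condition did not overlap for all 5, as for 13.9% of probe sets in this direction.

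Without B6 unstimulated array 3, Oas2 and Oasl2 had adjusted p values of 0.0535 and 0.0519 with little change in size, at -1.10 and -1.60, and Oas1a, Oas3 and Oasl1 still passed. Leaving out a B6 flagellin array moved the sizes more for some members but ended no call. Without flagellin array 2 Oas2 was at -0.96 and Oasl2 at -1.24, and without flagellin array 3 Oasl1 was at -2.95. When the 4 arrays high in cytokine genes were left out, which leaves B6 unstimulated with array 1 alone, 0 of 5 passed in limma, with values from -0.65 for Oas1a to -2.67 for Oasl1. The lone array was assumed to vary like the other groups. The fit of the 6 B6 arrays alone also called 0 of 5, with adjusted p values of 0.136 to 0.138 and unadjusted p values of 0.000695 to 0.006.

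In the other strains 0 of 5 members passed in limma, and 0 were at an unadjusted p under 0.05. In each of these 3 strains 0% of all probe sets were called. For Oas1a the flagellin difference was 0.07 in both C3Bir and BC-R3 and 0.08 in CB-R1, and its 95% confidence interval ran from -0.29 to 0.43 in C3Bir. For Oas3 the values in the order C3Bir, BC-R3, CB-R1 were 0.23, -0.13 and 0.07, and the interval in C3Bir ran from -0.19 to 0.65. Oasl1 in that order was at -0.10, -0.14 and 0.53 with wide intervals, from -1.62 to 1.33 in BC-R3. Oas2 differed by 0.18, 0.03 and 0.18, and Oasl2 by -0.03, -0.01 and 0.26. These intervals do not include falls of the size seen in B6.

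**Figure D3:**
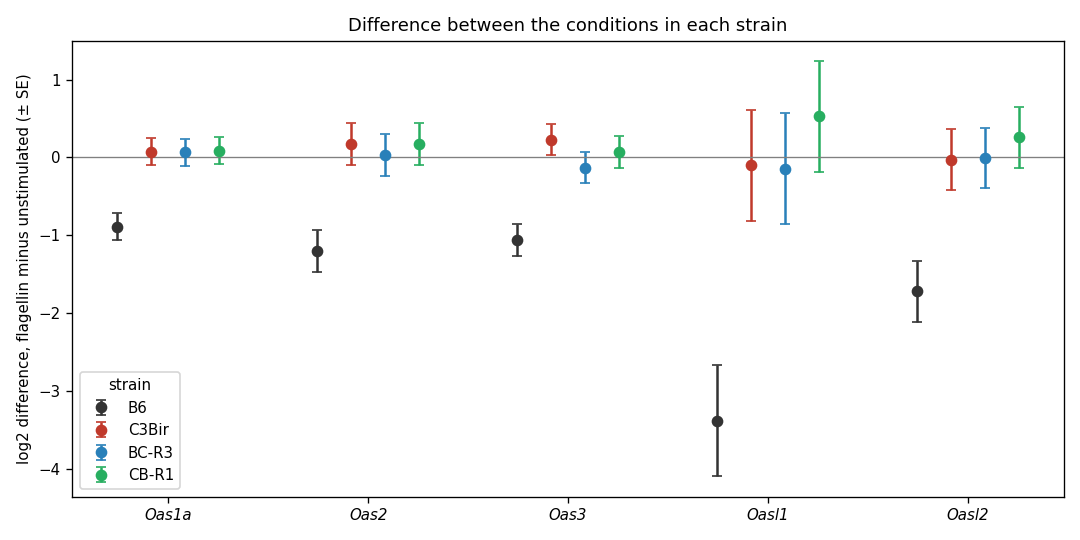
Log2 difference between flagellin and unstimulated arrays for each member, by strain, with the standard error from limma (n = 3 arrays per group). B6 lies between -0.89 and -3.38, while the other strains lie between -0.14 and 0.53.

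The flagellin changes of different strains were also compared directly. Compared with B6, the change in BC-R3 was higher by 0.96 ± 0.24 for Oas1a, the member that passed (adjusted p = 0.0294, limma). In that contrast 3.31% of all probe sets were called higher. Oas3 was at 0.92 ± 0.28, Oas2 at 1.23 ± 0.38, Oasl1 at 3.23 ± 1.00 and Oasl2 at 1.71 ± 0.55, with adjusted p values of 0.0501, 0.0516, 0.0510 and 0.0571. Oas1a passed in 17 of the 24 fits that left out 1 array. It did not pass without B6 unstimulated array 2 or 3, B6 flagellin array 3, BC-R3 unstimulated array 2 or 3, or BC-R3 flagellin array 2 or 3, with adjusted p values of 0.0589 to 0.0889 and values of 0.87 to 0.96. Without the 4 arrays it was at 0.72 ± 0.29 (adjusted p = 0.497), whereas without array 1 of the unstimulated B6, C3Bir and BC-R3 groups all 5 members passed. For C3Bir against B6 the differences ranged from 0.96 for Oas1a to 3.27 for Oasl1, and 0 of 5 passed, with all 5 at an unadjusted p under 0.05 and adjusted p values of 0.107 to 0.207. There 0% of probe sets were called, and the share at an unadjusted p under 0.05 is not given here. Without B6 unstimulated array 1, however, 4 of 5 members passed, and 2560 of all probe sets were called, against 0 with all arrays. Without B6 flagellin array 1, 3 members passed, and without array 1 of the unstimulated B6, C3Bir and BC-R3 groups all 5 did. For these latter fits the count over all probe sets is not given here. Without the 4 arrays high in cytokine genes the C3Bir against B6 differences were smaller. They were then 0.41 for Oas3, 0.46 for Oas1a, 0.61 for Oas2, 0.85 for Oasl2 and 2.28 for Oasl1. CB-R1 against C3Bir gave 0 of 5 in limma, 0 also unadjusted, with 0% of all probe sets called and values from -0.16 for Oas3 to 0.63 for Oasl1. The comparisons with B6 share the B6 arrays.

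Other genes of the pathway were examined in the B6 comparison from lists. Of the 5 other Oas genes measured, 2 fell: Oas1b, an allele of which governs resistance to flaviviruses and which RefSeq lists as a transcribed pseudogene in C57BL/6J, by 0.61 ± 0.13, and Oas1c by 0.66 ± 0.19. Oas1e, Oas1f and Oas1h did not pass, with values of -0.11, -0.07 and -0.05. Some of these probe sets had low signal. On the B6 arrays Oas1h lay at 6.11 to 6.46, below the array medians of 6.55 to 6.62. Oas1c lay on both sides of them, at 5.83 to 7.17. Of 3 genes of oligoadenylate effect and turnover, Abce1 stood at 0.13, Pde12, which degrades oligoadenylates, at -0.16 and Akap7 at -0.04, and 0 passed in limma, 0 also unadjusted.

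Of 10 sensors of RNA and DNA, 8 fell and 1 rose, against 9.31% of all probe sets called higher. Ifih1, encoding the sensor MDA5, fell by 2.28 ± 0.42, Rigi by 1.69 ± 0.34, Tlr3 by 1.39 ± 0.26 and Cgas, a DNA sensor of the same enzyme fold as the Oas proteins, by 1.05 ± 0.20. Eif2ak2, the RNA-activated kinase PKR, fell by 1.15 ± 0.31, and the helicase regulator Dhx58 fell by 1.61 ± 0.33. Zbp1 fell by 1.66 ± 0.42 and Adar, which edits double-stranded RNA, fell by 0.96 ± 0.14. Mavs, the adaptor of the RNA helicases, rose by 0.38 ± 0.11, and Sting1 stood at 0.00 ± 0.12. Of 14 interferon signalling genes 7 fell, including Usp18, the feedback inhibitor of the interferon receptor, by 2.60 ± 0.54, Irf7 by 1.75 ± 0.47 and Stat2 by 1.46 ± 0.40. Ifnb1, the interferon beta gene, fell by 0.37 ± 0.11, the transcription factor Irf1 by 1.45 ± 0.30, the receptor kinase Tyk2 by 0.61 ± 0.14 and the inhibitor Socs1 by 1.85 ± 0.33. Both receptor chains, Ifnar1 at 0.21 and Ifnar2 at 0.04, did not pass, and neither did Jak1, Irf3, Irf5, Irf8 and Irf9, at -0.05, 0.10, -0.08, 0.44 and -0.51. Of 22 other interferon-stimulated genes 19 fell, with a median of -2.04. The chemokine Cxcl10 fell by 3.51, the antiviral GTPase Mx1 fell by 3.49, the mitochondrial kinase Cmpk2 fell by 2.95 and the RNA-binding Ifit1 fell by 2.80, the largest falls in that list. The mean of the 11 inflammatory cytokine genes was 7.19 to 9.41 on the B6 unstimulated and 6.72 to 7.00 on the B6 flagellin arrays, and its part in the changes of the family was not tested.

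**Figure D4:**
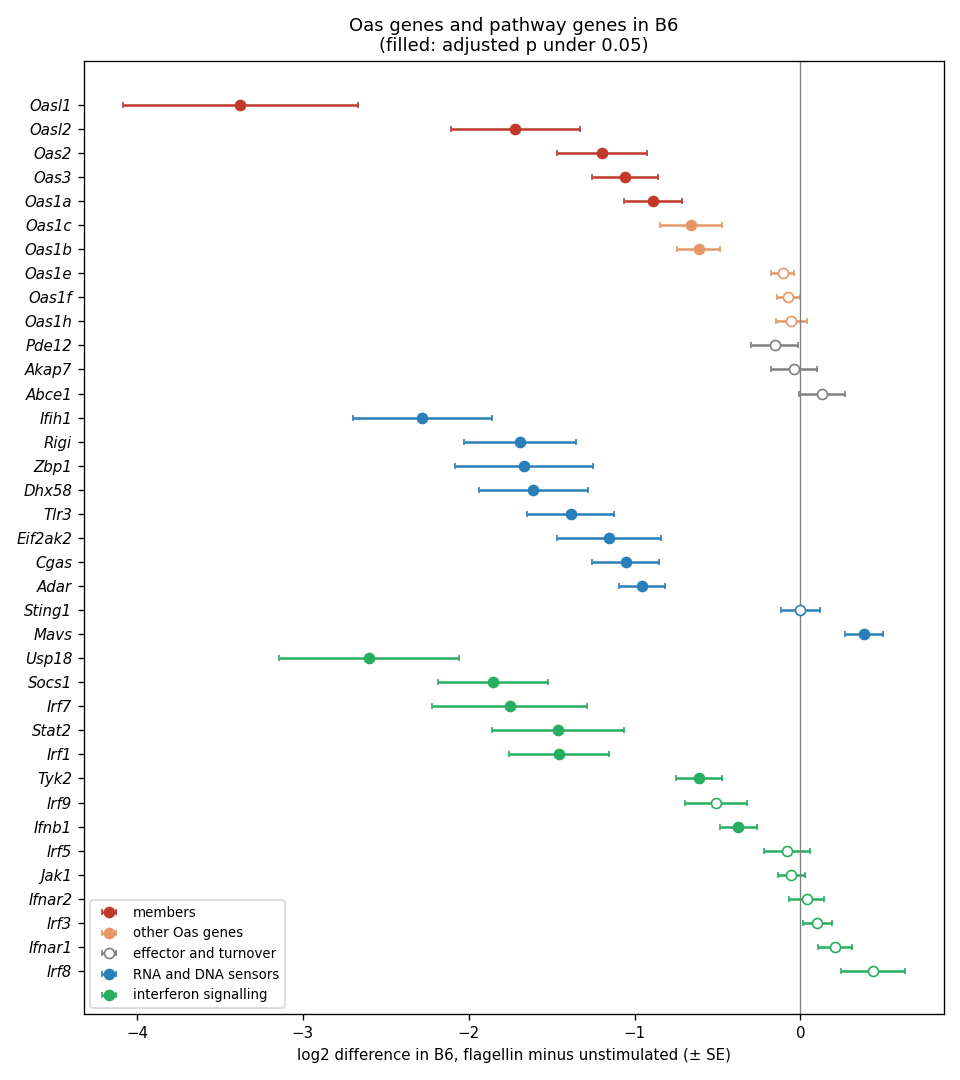
Log2 difference in B6 between flagellin and unstimulated arrays (x axis, ± SE) for the members and the pathway lists, sorted within list. Filled symbols passed an adjusted p of 0.05 in limma; Mavs is the single filled symbol above 0.

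Susceptible C3Bir and resistant B6, the parental strains, were compared next. On arrays labelled unstimulated all 5 members were lower in C3Bir. Oasl1 was lower by 3.49 ± 0.71 (11.3-fold), at 8.76 ± 0.31 against 12.25 ± 0.61 (mean ± SD, n = 3). Oasl2, Oas2, Oas3 and Oas1a stood at -1.26 ± 0.39, -0.97 ± 0.27, -0.77 ± 0.20 and -0.56 ± 0.17, with adjusted p values of 0.0351, 0.0202, 0.0140 and 0.0373 in limma against 0.0025 for Oasl1. Of all probe sets 5.36% were called lower and 8.08% higher. Arrays of the strains did not overlap for 4 of 5 members, as for 13% of probe sets in this direction, and Oas3 overlapped through C3Bir array 1.

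Calls of the strain difference depended on single arrays. Leaving out B6 unstimulated array 2 or 3, or C3Bir unstimulated array 2 or 3, each left Oasl1 as the sole member called. The values of the other 4 members in these fits ran from -0.45 to -0.54 for Oas1a, -0.78 to -0.94 for Oas2, -0.59 to -0.72 for Oas3 and -1.14 to -1.20 for Oasl2. Without all 4 of these arrays only array 1 of each strain is left, with Oasl1 at -2.49 and Oas3 turned to 0.10. In C3Bir that array was the highest of its group for all 5 members, and in B6 it was the lowest. Of the pathway lists, 8 of 10 sensors and 5 of 14 signalling genes were lower in C3Bir with all arrays, and 1 signalling gene was higher. Of the 22 interferon-stimulated genes 13 were lower.

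With flagellin the members of C3Bir and B6 were closer. Oas3 stood at 0.51 ± 0.20, Oas1a at 0.41 ± 0.17, Oasl2 at 0.43 ± 0.39, Oas2 at 0.40 ± 0.27 and Oasl1 at -0.22 ± 0.71. In limma 0 of 5 passed, with 2 at an unadjusted p under 0.05, and 5.68% of all probe sets were called. The difference of the differences is the contrast given above for the flagellin change.

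BC-R3 carries the C3Bir Cdcs1 region on the B6 background, so the comparison with B6 addresses the locus. On arrays labelled unstimulated all 5 members were lower in BC-R3. Oasl1 was at -2.91 ± 0.71 (7.54-fold lower), Oasl2 at -1.30 ± 0.39, Oas2 at -1.04 ± 0.27, Oas1a at -0.81 ± 0.17 and Oas3 at -0.80 ± 0.20, with limma adjusted p values of 0.0028 to 0.0193. Of all probe sets 11.2% were called lower there and 15.3% higher, and the arrays of all 5 members were apart, as for 19.8% of probe sets in this direction. Of the interferon-stimulated genes 19 of 22 were also lower, of the sensors 7 of 10 and of the signalling genes 7 of 14, and 1 gene of each of the latter lists was higher. Of the 11 cytokine genes 9 were lower, with list means of 6.48 to 7.27 on the BC-R3 and 7.19 to 9.41 on the B6 unstimulated arrays. Of the 8 macrophage markers 3 were higher, with a median of 0.21. Of the 5 stromal markers 1 was lower, with a median of -0.87 and list means of 7.31 to 7.83 against 7.72 to 9.07. The part of these lists in the differences of the members was not tested. Without BC-R3 unstimulated array 3 the count of members was 3, and Oas2 and Oasl2 had adjusted p values of 0.0598 and 0.107. Without B6 unstimulated array 3 it was also 3, and Oas3 and Oasl2 had 0.0524 and 0.0801. Without the 4 arrays, which leaves B6 unstimulated with array 1 alone, the differences were smaller. They ran from -0.41 for Oas3 to -2.21 for Oasl1, with Oas1a at -0.58. With flagellin 0 of 5 passed in limma, 0 also unadjusted, with values of 0.12 to 0.41, and 0.0222% of probe sets were called.

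CB-R1 carries the B6 segment on the C3Bir background. Here all 5 members stood higher in CB-R1 than in C3Bir in both conditions, and 0 of 5 passed in either. Unstimulated, Oas3 stood at 0.68 ± 0.20 (adjusted p = 0.104, limma), Oasl2 at 0.42 ± 0.39, Oas2 at 0.41 ± 0.27, Oas1a at 0.40 ± 0.17 and Oasl1 at 0.20 ± 0.71. Of these 2 were at an unadjusted p under 0.05, and 0.586% of all probe sets were called. Without C3Bir unstimulated array 1 Oas3 was at 0.92 with an adjusted p of 0.00721 in limma. In that fit 2869 of all probe sets were called, against 264 with all arrays. With the 4 arrays left out the unstimulated values of Oas2 and Oasl1 were -0.04 and -0.10. With flagellin the values were 0.83 ± 0.71 for Oasl1, 0.71 ± 0.39 for Oasl2, 0.53 ± 0.20 for Oas3 and 0.41 for both Oas1a and Oas2, again with 2 at an unadjusted p under 0.05. There 0.0555% of probe sets were called, and the arrays of Oas1a and Oas3 were apart, as for 8.78% of probe sets in this direction. The mean of 5 stromal cell markers was 8.48 to 8.99 on CB-R1 arrays and 7.30 to 7.98 on C3Bir arrays, and that of the neutrophil markers 12.68 to 12.87 and 11.74 to 12.61. Their part in these differences was not tested.

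**Figure D5:**
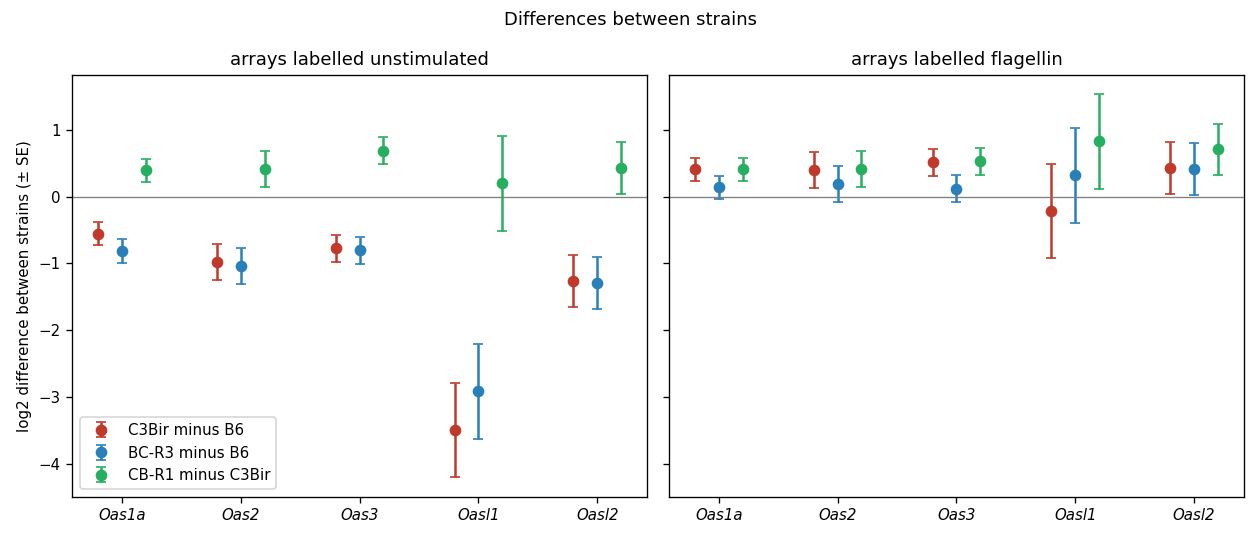
Log2 difference between strains (± SE from limma) for each member on arrays labelled unstimulated, left, and flagellin, right. On the left C3Bir and BC-R3 lie between -0.56 and -3.49 relative to B6, and on the right between -0.22 and 0.51. CB-R1 lies above C3Bir for all 5 members in both panels, where none passed.

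The 4 strains form a square of background and Cdcs1 allele, apart from the extended B6 stretch of chromosome 3 in CB-R1. Each effect was estimated as a mean over both conditions. Strains with the C3Bir allele were on average lower in Oas3 and Oas1a. The difference was 0.47 ± 0.10 in Oas3 and 0.37 ± 0.09 in Oas1a (log2 ± SE, adjusted p = 0.0290 and 0.0404, limma). This direction did not hold in every comparison averaged. BC-R3 minus B6 was 0.12 in Oas3 and 0.14 in Oas1a with flagellin, where neither passed, and -0.80 and -0.81 unstimulated. CB-R1 stood above C3Bir in both conditions. In the mean, Oas2, Oasl2 and Oasl1 stood at -0.42 ± 0.13, -0.50 ± 0.19 and -0.91 ± 0.35. These 3 did not pass in limma, with adjusted p values of 0.116, 0.190 and 0.197. Of all probe sets 0.484% were called lower. In the lists of sensors, signalling and interferon-stimulated genes 0 passed in limma. At an unadjusted p under 0.05 were 8 of 10, 5 of 14 and 15 of 22. The share of all probe sets at that level is not given here. Of the 5 stromal markers 1 was called lower, and all 5 were at an unadjusted p under 0.05, with a median of -0.84; their list mean was 7.30 to 8.43 on arrays with the C3Bir allele and 7.02 to 9.07 on those with the B6 allele. Their part in the differences of Oas3 and Oas1a was not tested. The calls were narrow: Oas3 remained called in 13 of the 24 fits that left out 1 array and Oas1a in 7. Neither was called without B6, C3Bir or BC-R3 unstimulated array 2 or 3, C3Bir flagellin array 3, BC-R3 flagellin array 1 or 3, CB-R1 unstimulated array 2 or CB-R1 flagellin array 1. Without array 1 of the unstimulated B6, C3Bir and BC-R3 groups all 5 members were called lower. Without the 4 arrays high in cytokine genes Oas3 was at -0.26 ± 0.10 and Oas1a at -0.24 ± 0.10, with adjusted p values of 0.480 and 0.549.

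Averaged over both conditions, strains of C3Bir background were higher in the same pair of genes. Oas3 was higher by 0.34 ± 0.10 and Oas1a by 0.29 ± 0.09 (adjusted p = 0.0164 and 0.0174, limma). Of all probe sets 12.5% were called higher. Both genes passed whichever array was left out. Unstimulated, Oas3 had means of 11.03 in C3Bir and 11.71 in CB-R1, against 11.80 in B6 and 10.99 in BC-R3. With flagellin they were 11.25 and 11.78 against 10.74 and 10.86. In the same order Oas1a had 12.04 and 12.43 against 12.59 and 11.78 unstimulated, and 12.11 and 12.52 against 11.70 and 11.85 with flagellin. Both strains of C3Bir background thus exceeded both of B6 background only with flagellin. Averaged over conditions, Oas3 and Oas1a differed by 0.56 ± 0.10 and 0.42 ± 0.10 without the 4 arrays. Without array 1 of the unstimulated B6, C3Bir and BC-R3 groups Oas3 was at 0.23 ± 0.08 with an adjusted p of 0.0604. Oas2 and Oasl2 were at 0.13 ± 0.13 and 0.09 ± 0.19, and Oasl1 pointed the other way at -0.95 ± 0.35 (adjusted p = 0.0602), called in 7 of the 24 fits that left out 1 array. In the same contrast all 6 neutrophil markers were higher, with a median of 0.77. Their mean was 11.74 to 12.87 on arrays of C3Bir background and 11.17 to 12.11 on those of B6 background, and their part in the differences of Oas1a and Oas3 was not tested.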

How the data were processed

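RNA was hybridised to 24 Affymetrix arrays, per the labels' protocols. The table deposited by the authors holds a log2 value for each probe set and array; the array software, normalization and background correction are not given in the sources used here. Of 45037 probe sets 4 had no values and the rest were used as deposited, with no filter and no further normalization. The values carry no detection call. Symbols came from GEO's platform annotation, and 34944 probe sets had 1 symbol. In limma 3.58.1 (R 4.3.3) a model with a mean for each of the 8 groups used all 24 arrays and all probe sets. It had 16 residual and 4.02 prior degrees of freedom. The model was also run on simulated arrays with independent noise, and the outcome is not given here. Tests were two-sided, with Benjamini-Hochberg adjustment within each of 15 contrasts and calls at an adjusted p under 0.05. Counts at an unadjusted p under 0.05 stand without the share of all probe sets at that level. Genes outside the family were represented by their probe set with the highest mean. All members and all pathway genes measured were to be named whatever their values, with up to 4 interferon-stimulated genes by size of change. Genes most like a member were the 3 with the highest Pearson's r over the arrays. Members, lists and excluded arrays were chosen with earlier results of these data known. Alternatives were a filter on low values, 1 probe set per gene, median centring, quantile normalization, eBayes with trend and robust options, the compared arrays alone, 3 replicate blocks and leaving out arrays. Arrays have no read depth, and the number of arrays limits the precision.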

Additional observations from a re-analysis of the deposited data

Results flagged for a closer look

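The flagellin change of Oas1a differed between BC-R3 and B6 by 0.96 ± 0.24 on the log2 scale (± SE, 3 arrays per group, adjusted p = 0.0294 in limma), which is a difference between groups under the same contrast. The change was 0.07 in BC-R3 and -0.89 in B6. The other 4 members differed in the same direction with adjusted p values from 0.0501 to 0.0571. The call was lost without any one of 7 arrays of B6 and BC-R3, of both conditions, with values of 0.87 to 0.96.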

How the results depend on the processing

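Over 35 alternative settings, 2429 of 2585 member values kept their side of the threshold, though 61 values called in neither fit changed sign. The 2429 include all values called in neither fit, and fits that left out an array of a group not compared. A call was lost for 93 values with the same direction, 62 gained one and 1 reversed. The reversal was Oas3 in C3Bir minus B6, unstimulated, at 0.104 without the 4 arrays highest in cytokine genes. Leaving out those 4 arrays, or array 1 of the unstimulated B6, C3Bir and BC-R3 groups, was chosen after seeing the data. Without the 4 arrays the count of members called was 0 of 5 for the flagellin change in B6, C3Bir minus B6 unstimulated, BC-R3 minus B6 unstimulated, the Cdcs1 allele and the BC-R3 minus B6 difference of the flagellin change, where 2 groups then rest on 1 array each. Without the array 1 set it was 1 for C3Bir minus B6 with flagellin, CB-R1 minus C3Bir unstimulated and the background, and 5 for the allele and for the flagellin differences of C3Bir and of BC-R3 against B6. With the compared arrays alone, which leaves fewer degrees of freedom, it was 0 for the flagellin change in B6, 2 for C3Bir minus B6 unstimulated and 0 for both BC-R3 minus B6 unstimulated and the BC-R3 flagellin difference. That flagellin difference, 1 as reported, was 5 with the filter on low values and 4 with 1 probe set per gene. The cause of these shifts was not tested.

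Equal array numbers were not treated as pairs. Deviations of the 12 same-numbered pairs correlated from -0.444 to 0.504, with 8 of 12 over 0.1. Of the 12 unstimulated arrays 8 were closest to the flagellin array of their own number, among them every array of C3Bir and of CB-R1. Whether equal numbers share a mouse was not tested. With the replicate block by number the BC-R3 minus B6 flagellin difference had 4 members called, with the block by strain and number 3 as a fixed and 5 as a random term, and the allele 1 with the random block. With the fixed block by strain and number only the flagellin changes and their differences could be estimated. The other counts that could be estimated under these blocks were equal or close to those reported.

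Leaving out 1 array at a time gave 3 to 5 members called for the flagellin change in B6, 1 to 5 for C3Bir minus B6 unstimulated, 3 to 5 for BC-R3 minus B6 unstimulated and 0 to 1 for CB-R1 minus C3Bir unstimulated. It gave 2 to 3 for the background, 0 to 3 for the allele, 0 to 4 for the C3Bir and 0 to 5 for the BC-R3 flagellin difference from B6. Over the same fits the probe sets called in the B6 flagellin change numbered 1438 to 11405, against 7768 with all arrays. They numbered 0 to 2560 in the C3Bir and 184 to 8456 in the BC-R3 flagellin difference from B6, and 138 to 2440 for the allele. Counts over all probe sets thus also shifted with single arrays.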
